A study of Mus musculus with 24 samples.

Results

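Human CAR in mouse liver was examined without its own ligand, against livers with no CAR at all. CAR is the constitutive androstane receptor, encoded by Nr1i3 in the mouse. The tested arrays were the 4 from human CAR mice (CAR.AH) given corn oil or TCPOBOP, and they were set against the 4 from knockout mice (CAR.KO) given the same treatments. They were chosen by genotype and treatment as labelled, 8 of the 24 arrays in the series, and no measured value entered the choice. In human CAR mice the receptor gene is a transgene driven by the mouse albumin promoter, so that its expression is meant for hepatocytes, on a background that lacks mouse CAR. Wild-type mice, used here for context, have mouse CAR alone, and knockout mice carry neither receptor. All mice were labelled female and of mixed C57BL/6x129Sv background, and their age is not given in the labels. The human CAR animals were obtained by crossing transgenic mice to knockouts through 2 breeding cycles, and whether they stem from 1 founder is not given. Corn oil was the vehicle. TCPOBOP was given at 3 mg/kg in 1 intraperitoneal injection, with corn oil on the other days. CITCO at 30 mg/kg a day and phenobarbital at 100 mg/kg a day, used for context, were injected on each of 3 days at 24 h intervals. Livers were taken 6 h after the last injection. Each group held 2 mice with 1 Affymetrix array per mouse, and this number limits the precision of every value.

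CAR is a nuclear receptor of hepatocytes that turns on genes for the uptake, oxidation, conjugation and export of drugs and bile pigments. In an unstimulated liver it is held largely in the cytoplasm. Activators send it to the nucleus, where it pairs with the retinoid X receptor (Rxra) and binds enhancers built from repeats of a receptor half-site. It is called constitutive because it can activate transcription in cultured cells without an added ligand. Its best known mouse target is Cyp2b10, a cytochrome P450 that is nearly silent in untreated liver, and Cyp2c29 is another P450 of the liver that CAR induces. TCPOBOP is a ligand of mouse CAR, CITCO one of human CAR, and phenobarbital activates both, per the study's design text. The livers on TCPOBOP therefore serve as a second set of human CAR livers without an agonist of the receptor they carry.

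The promoters that frame the comparison are shown as 5′ to 3′ sequence from RefSeq (GRCm38.p6), each running from 250 bases before the annotated start of the gene to 50 bases after it. The albumin promoter is shown because it drives the transgene. It lies at chr5:90460620-90460919 on the + strand, and the fragment used in the transgene is not given in the sources used here. Capitals mark the HNF1 core GTTAAT and the CCAAT box on either strand.
Alb: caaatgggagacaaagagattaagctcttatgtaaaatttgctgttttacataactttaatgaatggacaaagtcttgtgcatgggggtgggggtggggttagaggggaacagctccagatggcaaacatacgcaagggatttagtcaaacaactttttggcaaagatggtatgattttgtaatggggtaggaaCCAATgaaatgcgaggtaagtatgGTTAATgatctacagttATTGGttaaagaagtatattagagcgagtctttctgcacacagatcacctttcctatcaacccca
The promoters of Cyp2b10 (chr7:25897408-25897707, + strand) and Cyp2c29 (chr19:39286835-39287134, + strand) are shown because these genes carry the result. Capitals mark the receptor half-sites AGGTCA and AGTTCA on either strand.
Cyp2b10: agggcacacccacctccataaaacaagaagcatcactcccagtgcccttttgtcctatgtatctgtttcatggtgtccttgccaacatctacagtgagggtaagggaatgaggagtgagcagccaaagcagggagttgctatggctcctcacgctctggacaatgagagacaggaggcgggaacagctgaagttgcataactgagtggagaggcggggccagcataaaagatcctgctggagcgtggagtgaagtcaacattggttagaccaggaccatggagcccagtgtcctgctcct
Cyp2c29: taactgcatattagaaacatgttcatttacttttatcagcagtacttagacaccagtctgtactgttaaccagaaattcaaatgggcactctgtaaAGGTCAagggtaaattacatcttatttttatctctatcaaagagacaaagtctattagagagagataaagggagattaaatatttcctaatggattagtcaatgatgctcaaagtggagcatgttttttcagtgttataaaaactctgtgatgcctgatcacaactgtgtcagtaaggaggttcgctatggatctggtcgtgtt
A single half-site, AGGTCA, began at position -154 from the Cyp2c29 start, and neither half-site was found in the Cyp2b10 window. Among 32851 mouse promoter windows of 300 bases, 27.7% held at least 1 of the half-sites, 7.1% the HNF1 core and 37.4% the CCAAT box. The known CAR enhancers of these genes lie farther upstream and were not examined.

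Checks of the samples came first. Values were deposited as RMA log2 expression, on which 1 unit is a doubling. The Nr1i3 probe set, which reads mouse CAR, stood at 5.04 and 5.38 on the human CAR corn oil arrays and 5.03 and 5.32 on the human CAR TCPOBOP arrays. Wild-type livers on corn oil had 7.58 and 7.37, and knockout livers 5.06 and 5.15 on corn oil and 5.36 and 5.21 on TCPOBOP. The human CAR and knockout values overlapped, with a log2 difference of -0.00336 (95% interval -0.29 to 0.28), and both groups lay below wild type. Whether this probe set falls inside the deletion is unknown, and the human transcript was not measured here. Hepatocyte markers were high on all 8 arrays, with Alb between 13.4 and 13.5, and the 9 measured markers summed to 15.7 to 15.8 in human CAR and 15.6 to 15.7 in knockout livers on the log2 scale. The 8 arrays were of even quality: their median correlation with the other arrays was 0.989 to 0.991, and the signal gap between 3' and 5' probe sets was 0.469 to 0.576 in human CAR and 0.431 to 0.506 in knockout arrays. The female label could not be checked on sex-linked genes, whose probe sets were all dim or nearly so. Those of Xist ran from 2.86 to 5.32 on these arrays and those of Y-linked Eif2s3y, Kdm5d and Uty from 2.88 to 5.19. No other difference between mice, such as litter or day, is given. The p-values rest on the spread between mice within each of the 12 groups of the series, and not on these 8 arrays alone.

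Cyp2b10 was higher in every human CAR liver than in any knockout liver. Its log2 level was 8.22 and 8.82 in human CAR mice on corn oil and 7.02 and 7.59 in human CAR mice on TCPOBOP. Knockout mice had 5.42 and 4.81 on corn oil and 4.75 and 4.90 on TCPOBOP. All knockout values except 5.42 fell below the dim limit, the 40th percentile of all probe sets on the array, which was 4.96 to 5.04 on these 8 arrays. The means were 7.91 ± 0.78 in human CAR and 4.97 ± 0.30 in knockout mice (SD, n = 4 each). The difference of 2.95 (SE 0.27, limma adjusted p = 3.21e-05) is a 7.70-fold higher signal, with a 95% interval of 5.18 to 11.5. It was 3.41 (SE 0.38, adjusted p = 0.00054) on corn oil and 2.48 (SE 0.38, adjusted p = 0.0213) on TCPOBOP. On TCPOBOP both knockout arrays were dim, so the mean of Cyp2b10 was there at least 4.87-fold higher when the dim limit stands in for the knockout level. This bound leaves out the spread between mice, and the 95% interval of the fold was 3.19 to 9.81.

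The Cyp2b10 call on TCPOBOP alone was lost without the second human CAR array of that treatment, without either knockout array of it, and with a variance trend, at differences of 2.20 to 2.77 over the 8 fits that left out 1 array. The call on all 8 arrays was kept in each of these 8 fits and under each of 9 other settings. Both further probe sets of Cyp2b10 ran the same way, at 2.88 and 1.78. The main probe set and the one at 2.88 are of a type that can bind close relatives, so a share from another Cyp2b gene cannot be told apart. The probe set at 1.78, the smallest of the 3 differences, is not of that type. Cyp2b13, a close relative, differed by 0.18 (adjusted p = 0.998), while Cyp2b9, which is expressed more in female than in male mouse liver, lay below the dim limit on all 4 human CAR arrays. Cyp2b9 had 4.77, 4.48, 4.40 and 4.36 in human CAR mice and 6.84, 6.03, 8.08 and 5.12 in knockout mice, and did not pass (adjusted p = 0.324).

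Cyp2c29 had the smallest p of all 9167 tested genes. Its level was 10.7 on both human CAR arrays on corn oil and 11.2 on both on TCPOBOP. Knockout mice had 8.13 and 7.83 on corn oil and 8.64 and 9.41 on TCPOBOP. The groups did not overlap, and every array was far above the dim limit. The means were 10.97 ± 0.30 in human CAR and 8.50 ± 0.69 in knockout mice (SD, n = 4 each), a difference of 2.47 (SE 0.13, limma adjusted p = 1.58e-08). That is 5.53-fold, with a 95% interval of 4.56 to 6.70. Within treatments the difference was 2.73 (SE 0.19, adjusted p = 7.09e-07) on corn oil and 2.21 (SE 0.19, adjusted p = 1.69e-05) on TCPOBOP, and the call held in all 8 fits without 1 array in each of these comparisons.

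Set beside wild type, human CAR without its ligand placed these genes differently. Wild-type livers on corn oil, which carry mouse CAR, had Cyp2b10 at 4.66 and 5.22, in the range of the knockout. Human CAR mice on corn oil were 3.58 above them (SE 0.38, limma adjusted p = 0.000272), which is 12.0-fold with a 95% interval of 6.82 to 21.0. Of these 2 wild-type arrays 1 was below the dim limit for Cyp2b10, so the size of this fold is uncertain. For Cyp2c29, wild-type livers had 10.97 and 11.02, and human CAR mice on corn oil differed from them by -0.29 (SE 0.19, adjusted p = 0.784, 95% interval -0.68 to 0.10). Human CAR mice on corn oil thus had more Cyp2b10 than wild type, while for Cyp2c29 no difference passed and the interval leaves room for a lower level. This comparison uses the same human CAR corn oil arrays as the knockout comparison. It was added after the data were seen, and it called 5 of 9167 genes (0.0545%). The count was 3 without the first and 22 without the second human CAR corn oil array. Besides Cyp2b10, which was higher, they were Nr1i3 itself at -2.26, the glutathione transferase Gstp3 at -4.47 (adjusted p = 0.00496), Plekhb2 at -1.0045 and Spp2 at -1.31. Gstp3 was bright in wild-type livers on corn oil (11.67 and 10.83), while human CAR livers (6.73 and 6.84 on corn oil, 7.07 and 6.81 on TCPOBOP) and knockout livers (6.46 and 6.42 on corn oil, 6.40 and 6.50 on TCPOBOP) were low. Its wild-type values varied, at 6.54 and 6.66 with CITCO and 6.81 and 10.1 with TCPOBOP.

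The unliganded level was below that under the receptor's activators. In human CAR mice given CITCO, Cyp2b10 stood at 11.37 and 11.68, and in those given phenobarbital at 11.22 and 11.37, all above the 7.02 to 8.82 without them. Cyp2c29 stood at 12.26 and 12.30 with CITCO and 12.16 and 12.22 with phenobarbital in these mice. In knockout mice given CITCO, Cyp2b10 was 4.45 and 4.82 and Cyp2c29 8.35 and 8.16, near the other knockout arrays. Wild-type mice, which lack human CAR, had Cyp2b10 at 7.36 and 8.975 with CITCO, against 4.66 and 5.22 on corn oil. Their Cyp2c29 was 12.11 and 11.875 with CITCO, against 10.97 and 11.02 on corn oil. Higher levels with CITCO were thus not confined to human CAR mice, and whether mouse CAR takes part was not tested.

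**Figure D1:**
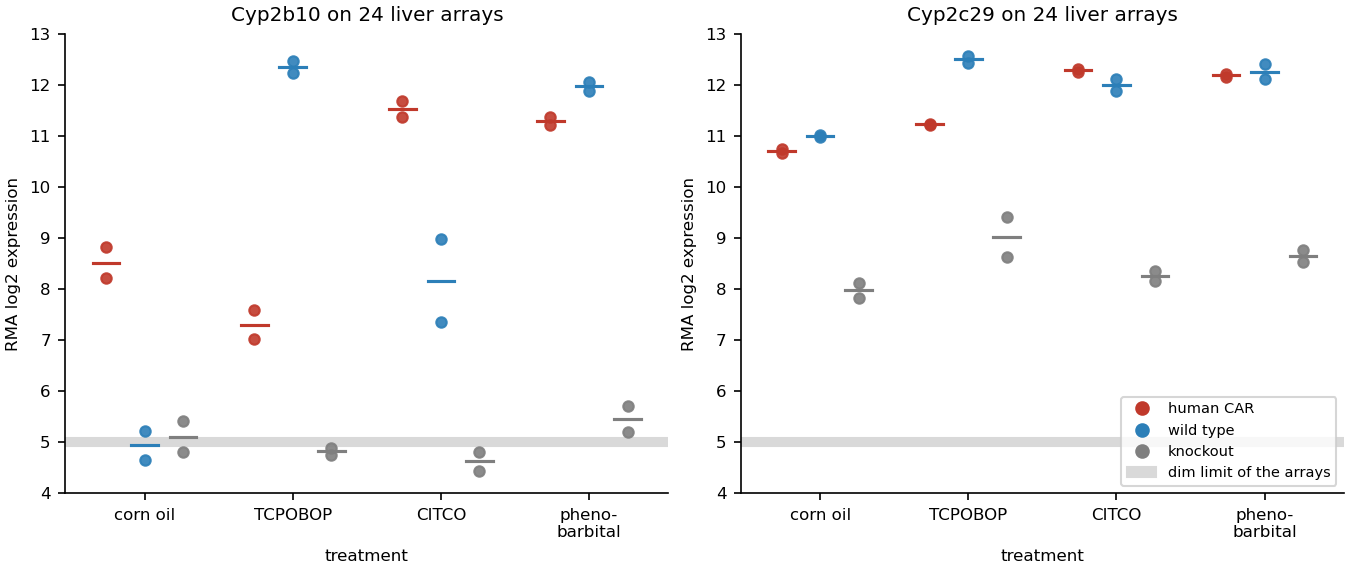
RMA log2 expression of Cyp2b10 and Cyp2c29 in 24 livers by treatment and genotype, 1 point per mouse with a bar at the mean of 2, the grey band marking the dim limits of the arrays. On corn oil and TCPOBOP the human CAR points of both genes lie above all knockout points, and on corn oil those of Cyp2b10, but not of Cyp2c29, lie above wild type.

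Whether TCPOBOP acts in livers whose only CAR is human was tested across all genes. Between TCPOBOP and corn oil in human CAR mice, 0 of 9167 genes passed (0%, limma, smallest adjusted p = 0.411, 610 at an unadjusted p under 0.05). Without the second human CAR corn oil array 11 passed. Cyp2b10 had a log2 change of -1.21 (SE 0.38, adjusted p = 0.632), and its pairs of arrays did not overlap. Cyp2c29 had a change of 0.53 (SE 0.19, adjusted p = 0.656), in the other direction. Whether the genotype difference itself differed between the treatments was tested as well, and 0 of 9167 genes passed (0%, smallest adjusted p = 0.317, 461 at an unadjusted p under 0.05). The gene with that smallest value was Avpr1a, and 1 gene passed without either human CAR TCPOBOP array or the first knockout corn oil array. For Cyp2b10 this difference of differences was -0.93 (SE 0.54) and for Cyp2c29 -0.52 (SE 0.26), neither of which passed.

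Few other genes separated the 2 genotypes. Over the 8 arrays, 13 of 9167 genes passed (0.142%), 7 of them higher (0.0764%) and 6 lower (0.0655%) in human CAR mice. At an unadjusted p under 0.05 there were 494. On corn oil alone 11 passed (0.12%), 4 higher and 7 lower, and on TCPOBOP alone 3 passed (0.0327%), all higher. The corn oil count was 17 without either human CAR TCPOBOP array and 4 without either knockout corn oil array. The TCPOBOP count was 6 without the first human CAR TCPOBOP array and 1 without the second or without either knockout TCPOBOP array. The 3 called in both treatments, on arrays that share no mouse, were Cyp2b10, Cyp2c29 and Hprt. All 13 had the same sign in both treatments, as the pooled test favours. In 12 of the 13 the human CAR and knockout arrays did not overlap. The 13 were called on these same arrays, which favours such separation, so it is no further evidence. Over all genes it was found upward in 1.8% and downward in 1.52%. The count of 13 depended on single arrays. It was 28 without the first human CAR corn oil array and 6 without the second, and 5 without the second human CAR TCPOBOP array. It was 7 without the first and 5 without the second knockout corn oil array, and 3 without the first and 6 without the second knockout TCPOBOP array. Cyp2b10, Cyp2c29 and Hprt were kept in all 8 such fits, and the other 10 genes were each lost in at least 3.

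**Figure D2:**
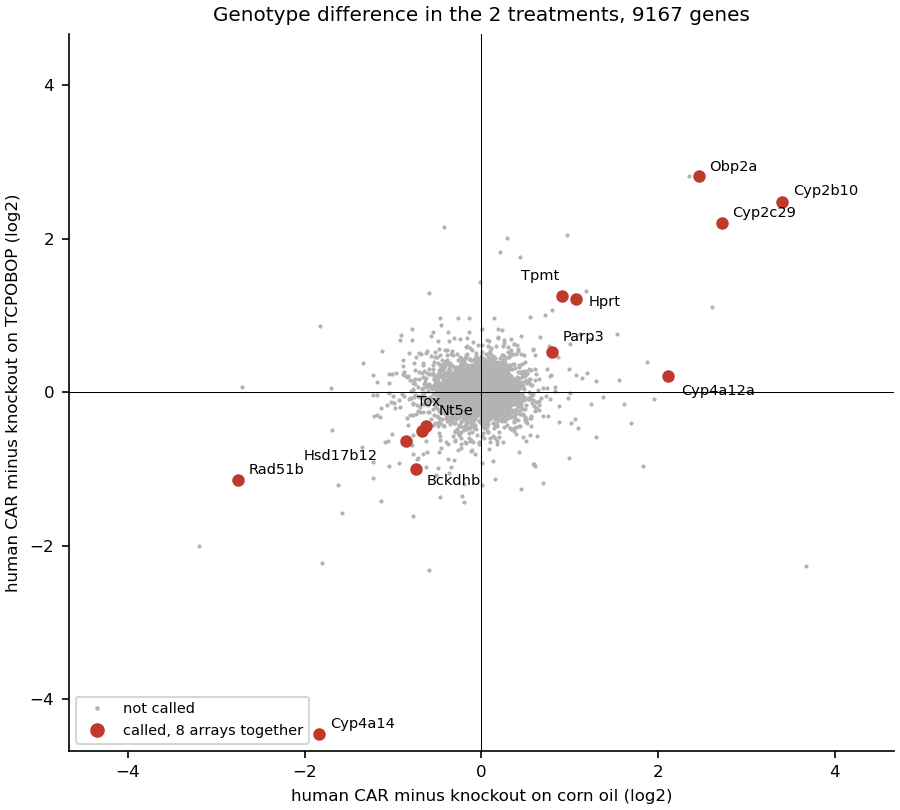
Log2 difference of human CAR minus knockout on corn oil (horizontal) and on TCPOBOP (vertical) for 9167 genes, the 13 called over both treatments in red. Cyp2b10 and Cyp2c29 lie above 2 on both axes, and Cyp4a12a differs mainly on corn oil.

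Hprt, the purine salvage enzyme hypoxanthine phosphoribosyltransferase, was the third call made in both treatments but depended on which knockout arrays were used. It was 8.78 and 8.80 in human CAR mice on corn oil and 9.02 and 8.87 on TCPOBOP, against 7.62 and 7.83 in knockout mice on corn oil and 7.56 and 7.90 on TCPOBOP. The difference was 1.14 (SE 0.13, limma adjusted p = 0.000536), or 2.20-fold. Wild-type livers on corn oil had 9.07 and 8.997, close to the human CAR level. Knockout mice given CITCO had Hprt at 8.72 and 8.65, and those given phenobarbital 8.89 and 8.68, so the low level marked 4 of the 8 knockout mice. With the CITCO knockout arrays in place of the other 4, a setting added after the data were seen, the Hprt difference was 0.18 (adjusted p = 0.851). Against all 8 knockout arrays, also added later, Hprt was called, at 0.64 (adjusted p = 0.0306). One human CAR mouse given phenobarbital had 7.86, near the low level, and the other 8.69. The array at 7.86 had the lowest median correlation with the other arrays of the series, 0.970, and is 1 of 2 that stand apart.

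The other called genes were set against these knockout mice as well. With the CITCO knockout arrays, Cyp2b10 differed by 3.28 (limma adjusted p = 0.000123), Cyp2c29 by 2.71 (adjusted p = 8.52e-08) and Cyp4a12a by 1.52 (adjusted p = 0.0285), and these 3 were the only ones of the 13 still called, among 7 genes in all. Tpmt (1.27, adjusted p = 0.0615), Obp2a (2.42), Parp3 (0.61), Hsd17b12 (-0.59), Bckdhb (-0.45) and Cyp4a14 (-1.62) kept their sign without passing. Nt5e (-0.21) and Tox (-0.10) kept theirs too, at smaller differences, and Rad51b (0.18) changed sign. Against all 8 knockout arrays 14 genes passed, 9 of them among the 13. Of the 13, Bckdhb (-0.62), Hsd17b12 (-0.56), Rad51b (-0.80) and Tox (-0.35) did not pass there. What sets the knockout mice apart from one another, beyond their treatments, is not given in the labels and was not tested.

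The other genes higher in human CAR livers were Obp2a, Cyp4a12a, Tpmt and Parp3. Tpmt, which methylates thiopurine drugs, had 7.67 and 8.04 on corn oil and 8.19 and 8.05 on TCPOBOP in human CAR mice, against 6.91 and 6.98 on corn oil and 6.89 and 6.84 on TCPOBOP in knockout mice. The difference was 1.08 (SE 0.19, adjusted p = 0.0293), with wild type on corn oil at 7.93 and 7.87. Its other probe set, near the dim limit, differed by 0.20.

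Obp2a, a small secreted protein of the lipocalin family, varied widely among the human CAR mice, at 5.49 and 7.38 on corn oil and 5.82 and 8.69 on TCPOBOP. All 4 knockout arrays were below the dim limit, at 3.801, 4.13, 4.29 and 4.58. Its difference was 2.64 (SE 0.46, adjusted p = 0.0293), and at least 3.61-fold when the dim limit stands in for the knockout level. In human CAR mice given CITCO it was lower again, at 4.76 and 5.28. Parp3, an ADP-ribosyltransferase involved in DNA repair, had 7.18 to 7.55 in human CAR and 6.49 to 6.87 in knockout mice, a difference of 0.67 (SE 0.12, adjusted p = 0.0408). Its second probe set differed by 0.01, and the call was lost with the mean of probe sets.

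Cyp4a12a, a fatty acid hydroxylase expressed mainly in male mice, was the one called gene whose groups overlapped. Human CAR mice had 9.19 and 10.2 on corn oil and 11.1 and 10.6 on TCPOBOP, and knockout mice 7.53 and 7.63 on corn oil and 10.5 and 10.8 on TCPOBOP. The knockout mice on corn oil were low and those on TCPOBOP were not. Its difference was 2.12 (SE 0.30, adjusted p = 0.00735) on corn oil and 0.21 (SE 0.30) on TCPOBOP, and 1.16 over both (SE 0.21, adjusted p = 0.0382). The difference between treatments, -1.91, had an adjusted p of 0.348.

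Of the 6 genes lower in human CAR livers, Cyp4a14, a fatty acid hydroxylase induced through the fatty acid receptor PPARα, had the largest difference. It was 8.49 and 6.75 on corn oil and 4.69 and 6.27 on TCPOBOP in human CAR mice, against 9.001 and 9.90 on corn oil and 9.99 and 9.86 on TCPOBOP in knockout mice. The groups did not overlap, but the human CAR mice were spread from 4.69 to 8.49. The difference was -3.14 (SE 0.55, adjusted p = 0.0293), and wild-type mice on corn oil were low and variable too, at 4.38 and 7.12. Cyp4a12a and Cyp4a14, with opposite signs, are neighbours on chromosome 4.

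Rad51b, a gene of homologous recombination repair, had 4.54 and 3.95 on corn oil and 4.55 and 5.73 on TCPOBOP in human CAR mice, against 7.32 and 6.69 on corn oil and 6.65 and 5.92 on TCPOBOP in knockout mice. Its difference was -1.95 (SE 0.34, adjusted p = 0.0293). Wild-type mice on corn oil were at the higher level, 6.40 and 6.90, and knockout mice given CITCO at the lower one, 4.84 and 4.19. A second, dim probe set of Rad51b differed by 0.04. On its main probe set, 3 of the 4 human CAR arrays were below the dim limit for this gene.

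Hsd17b12, which takes part in the elongation of long-chain fatty acids, was 8.39 to 8.69 in human CAR and 9.25 to 9.42 in knockout mice. Its difference was -0.74 (SE 0.14, adjusted p = 0.0483), and -0.90 on its other probe set. Wild-type mice on corn oil had the higher level as well, at 9.56 and 9.35. Bckdhb, a subunit of the branched-chain keto acid dehydrogenase, had 8.13 to 8.74 in human CAR and 9.07 to 9.44 in knockout mice, a difference of -0.87 (SE 0.15, adjusted p = 0.0293). Nt5e, the ecto-5'-nucleotidase that makes adenosine, had 5.72 to 5.79 in human CAR and 6.08 to 6.46 in knockout mice (-0.53, SE 0.08, adjusted p = 0.0127). Bckdhb and Nt5e lie close to each other on chromosome 9, with 3 tested genes between them. With the Cyp4a pair they are the 4 of 13 called genes that have another called gene among the 5 nearest tested genes on a side. How often this occurs among any 13 tested genes was not computed, so the count is a description only. Tox, a nuclear DNA-binding protein known from T cells, was dim on all 4 human CAR arrays and on 2 of the 4 knockout arrays, so no fold is given for its difference of -0.59 (SE 0.10, adjusted p = 0.0292). A second, dim probe set of Tox differed by 0.02, and the call was lost with the mean of probe sets.

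**Figure D3:**
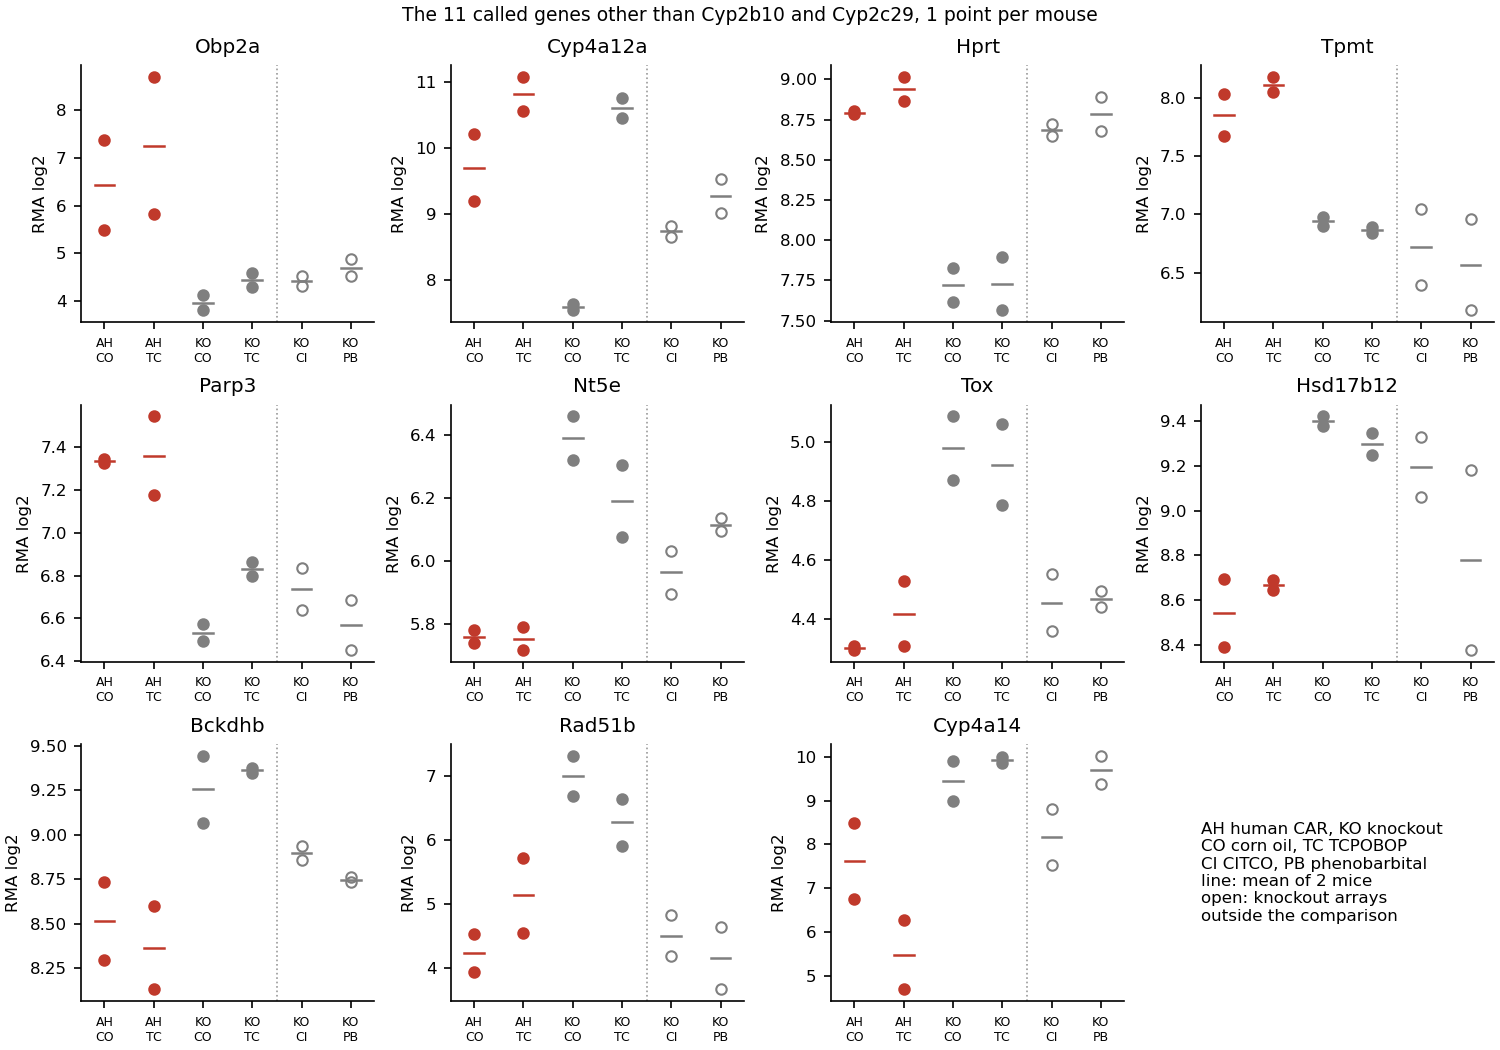
RMA log2 expression of the 11 called genes other than Cyp2b10 and Cyp2c29 in human CAR livers (red) and knockout livers (grey), 1 point per mouse with a bar at the mean of 2. Open points are knockout mice given CITCO or phenobarbital, outside the comparison, where Hprt, Rad51b and Tox lie with the human CAR mice.

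Among drug-metabolising P450 enzymes and their partners, 25 were tested, and 2 were higher and 0 lower. Both are the marker genes Cyp2b10 and Cyp2c29, which were picked with results of these data known, so the count is no independent evidence. The median difference of the 25 was 0.13, against 0.00642 over all genes. No other member passed. Cyp2c55, another strongly CAR-inducible gene, had 6.08 and 5.91 on corn oil and 5.80 and 5.76 on TCPOBOP in human CAR mice. In knockout mice it had 5.10 and 5.21 on corn oil and 5.54 and 5.98 on TCPOBOP, and the groups overlapped (0.43, SE 0.31, adjusted p = 0.998). With CITCO it reached 8.50 and 8.70 in human CAR mice.

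Cyp2c50 (0.74, adjusted p = 0.785) and Cyp2c54 (0.22, adjusted p = 0.998) had no call. Cyp2c37 had differences of opposite sign in the treatments, without a call. It was 6.06 and 8.51 on corn oil and 4.20 and 4.17 on TCPOBOP in human CAR mice, against 3.53 and 3.69 on corn oil and 6.72 and 6.17 on TCPOBOP in knockout mice. Both knockout arrays on corn oil and both human CAR arrays on TCPOBOP were below the dim limit, so the sizes are bounds. With the dim limit in their place, the mean of Cyp2c37 was at least 5.02-fold higher in human CAR mice on corn oil. On TCPOBOP it was at least 2.67-fold lower in them. These bounds leave out the spread between mice. The 95% interval of the fold on corn oil was 3.48 to 47.3 (limma adjusted p = 0.198). The test of the difference between treatments did not pass (adjusted p = 0.348). Cyp2c39 (-1.32, adjusted p = 0.866) rested on wide spread, with one human CAR array at 5.595 and the other 3 at 7.84 to 8.25. Cyp3a11, the main target of the pregnane X receptor Nr1i2 and also inducible through CAR, was 12.0 to 12.2 in human CAR and 11.8 to 12.3 in knockout mice (0.04, 95% interval -0.18 to 0.27). Cyp1a2, a caffeine-oxidising enzyme, differed by -0.24 (adjusted p = 0.998).

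Conjugation enzymes attach glutathione, sugars or sulfate to drugs and their oxidised products. Of 34 tested, 1 was higher, Tpmt, and 0 lower, with a median of 0.11. Gstp1, a glutathione transferase, lay above the 4 knockout arrays compared in the 4 human CAR mice, at 12.5 to 12.8 against 11.9 to 12.4, and did not pass (0.51, adjusted p = 0.277). Against all 8 knockout arrays it was called, at 0.62 (limma adjusted p = 0.0344), and against the CITCO ones it was not (0.80, adjusted p = 0.105). Gstm3 (0.68, adjusted p = 0.695), Gstm1 (0.24) and Ugdh (0.27), which makes the sugar donor of glucuronidation, were not called either. Of 27 other drug-metabolising enzymes 0 passed, with Ces2a, a carboxylesterase, at 0.36 (adjusted p = 0.703). Of 17 transporters 0 passed over the 8 arrays. Abcc3, an export pump of conjugates that CAR induces, was 9.05 to 9.22 in human CAR mice. In knockout mice it was 8.26 and 8.50 on corn oil but 9.09 and 9.12 on TCPOBOP (0.38, adjusted p = 0.292). Of 38 nuclear receptors and liver factors 0 passed, and CAR's partner Rxra differed by 0.07 (95% interval -0.14 to 0.29).

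Genes of growth and cell division, which CAR activators raise in mouse liver, gave no call. Of 24 S phase and mitosis genes 0 passed and 21 had a negative difference (median -0.13). Of 18 growth and immediate early genes 0 passed (median -0.01), and Gadd45b, a stress-induced CAR target, differed by 0.03 (adjusted p = 0.998).

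Fatty acid oxidation genes and PPARα targets had mostly negative differences. Of 35 tested, 1 passed, Cyp4a14, and 29 had a negative difference, with a median of -0.18 against 0.00642 over all genes. In 8 of the 35 all human CAR arrays were below all knockout arrays, and in 1 above, against 1.52% and 1.8% of all genes. The median was -0.11 without the second knockout TCPOBOP array. Vnn1, a pantetheinase and PPARα target, had 5.58 to 6.70 in human CAR and 7.15 to 8.05 in knockout mice (-1.58, adjusted p = 0.18). Acot3, a peroxisomal thioesterase, had 5.04 to 5.10 in human CAR and 5.67 to 8.01 in knockout mice (-1.46, adjusted p = 0.113). Cd36, a fatty acid transporter, differed by -0.92 (adjusted p = 0.324). Against the knockout mice given CITCO the median of the 35 was 0.10, Vnn1 differed by 0.64 and Cd36 by -0.02.

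**Figure D4:**
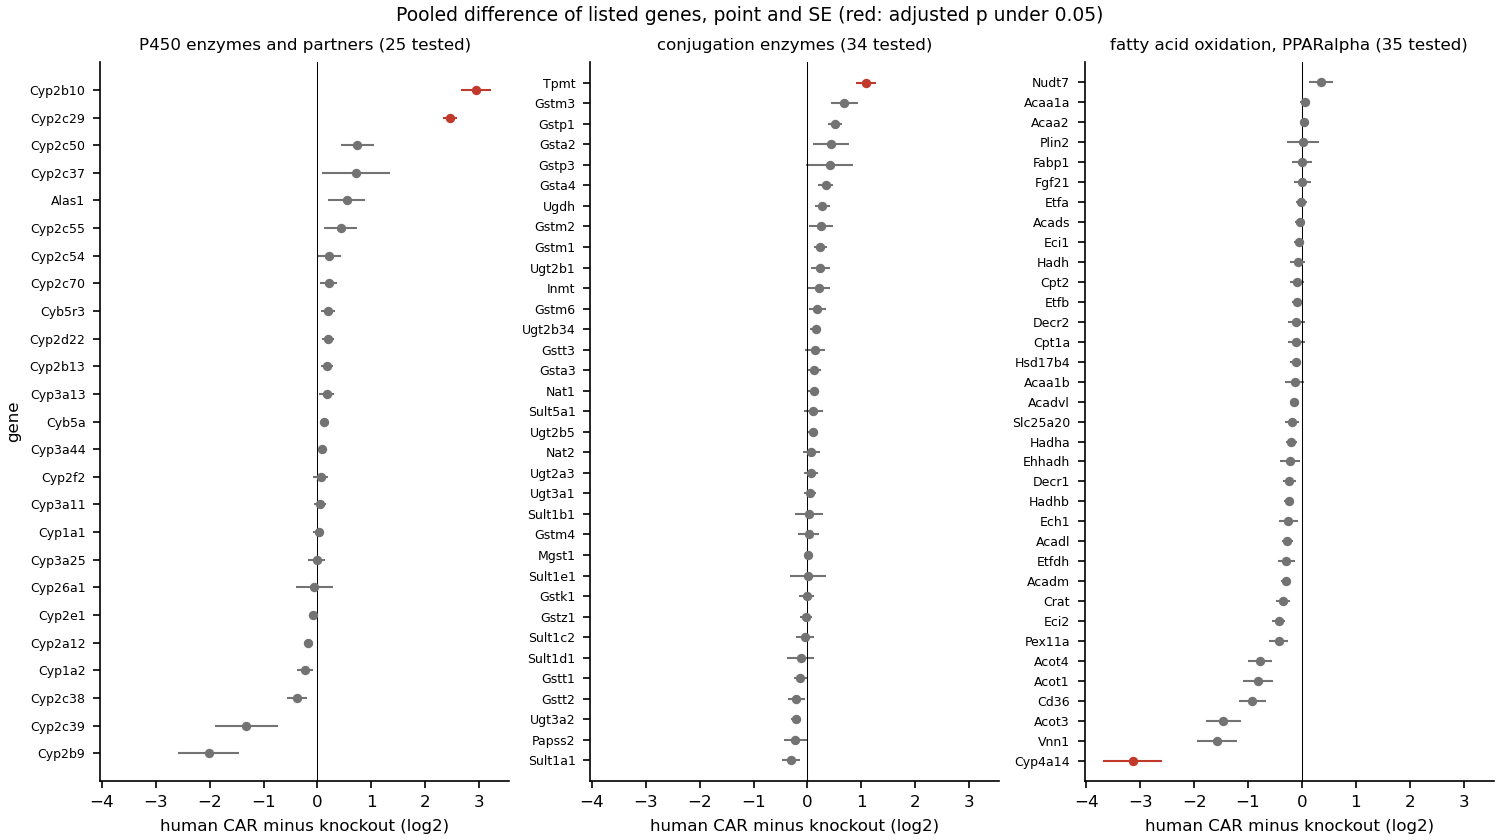
Log2 difference of human CAR minus knockout with its SE for the tested members of 3 gene lists, called genes in red. Cyp2b10 and Cyp2c29 stand at the top of the P450 list, Tpmt leads the conjugation enzymes, and Cyp4a14 stands lowest among fatty acid oxidation genes.

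Sex-biased liver genes are set by the growth hormone pattern of each sex, and all mice here carry the same label. Wild-type livers on corn oil had Cyp4a12a at 10.6 and 10.1 and Elovl3 at 9.44 and 9.18, both of the male-biased list. Cyp2b9, of the female-biased list, had 4.33 and 4.25 there, below the dim limit. These levels go against the female label, which was not tested on the other members of the lists. The compared arrays varied in these genes as well. Cyp4a12a was 9.19 to 11.1 in human CAR mice and 10.5 and 10.8 in knockout mice on TCPOBOP, but 7.53 and 7.63 in knockout mice on corn oil. Cyp2b9 was dim on all 4 human CAR arrays and 5.12 to 8.08 in knockout mice. Whether the sex of the mice enters the Cyp4a12a call or other differences was not tested. Of 17 genes known to be higher in male mouse liver, 1 passed, Cyp4a12a, and 15 had a positive difference (median 0.35). On corn oil alone 10 of the 17 were positive. The median was 0.54 without the first and 0.17 without the second human CAR corn oil array. C6, a complement protein, had 8.90 to 9.53 in human CAR and 7.998 to 8.77 in knockout mice (0.86, adjusted p = 0.0602). Against the CITCO knockout mice C6 was called, at 1.23 (adjusted p = 0.0285), and the median of the 17 was 0.72. Of 10 genes known to be higher in female liver 0 passed, with a median of -0.62, which was -0.33 without the second human CAR corn oil array. Elovl3, a fatty acid elongase of the male-biased list, was 5.59 and 7.91 on corn oil and 8.89 and 9.19 on TCPOBOP in human CAR mice, against 5.77 and 7.15 on corn oil and 6.62 and 7.45 on TCPOBOP in knockout mice (1.15, adjusted p = 0.583).

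Kupffer cell markers read the resident macrophages of the liver. Of 11 Kupffer cell markers 0 passed over the 8 arrays, but on corn oil Marco, a scavenger receptor, and Cd163, a hemoglobin receptor, were lower in human CAR mice, and all 11 had a negative difference there (median -0.79, against 0.20 on TCPOBOP). Marco had 6.24 and 5.69 in human CAR mice on corn oil and 7.33 and 7.28 in knockout mice on corn oil (-1.34, SE 0.24, adjusted p = 0.0368). On TCPOBOP it had 5.96 and 6.48 in human CAR and 5.88 and 5.79 in knockout mice, and Cd163 differed by -1.23 on corn oil and -0.03 on TCPOBOP. The log2 of the summed Kupffer markers was 11 to 11.4 in human CAR mice on corn oil and 11.8 to 12.1 in knockout mice on corn oil. On TCPOBOP it was 11.3 to 11.4 in human CAR and 10.7 to 11.4 in knockout mice. In whole liver, fewer cells of a type and less RNA per cell cannot be told apart. The median of the 11 over both treatments was -0.30, and 0.03 against the CITCO knockout mice. It was -0.12 without the first and -0.48 without the second knockout TCPOBOP array. The part of these cells in the other calls was not tested.

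The other genes called on corn oil and not over both treatments were Avpr1a, a vasopressin receptor, Ifi27l2a, an interferon-induced gene, and Slc22a26, an organic anion transporter family member. All were lower in human CAR mice on corn oil. Avpr1a had 6.92 and 6.95 in human CAR mice on corn oil, against 7.95 and 7.998 in knockout mice on corn oil (-1.04, SE 0.16, adjusted p = 0.0161). On TCPOBOP it had 6.82 and 6.96 in human CAR and 6.62 and 6.68 in knockout mice. Ifi27l2a differed by -1.18 and Slc22a26 by -1.07 on corn oil, and by 0.13 and -0.17 on TCPOBOP. In all 3 genes the knockout mice on corn oil were the high ones. Of 18 interferon response genes and 19 cholesterol synthesis genes 0 passed over the 8 arrays. Their medians were -0.36 and -0.56 on corn oil and -1.27e-05 and 0.05 on TCPOBOP.

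The remaining lists held at most 1 call. Acute phase (26 genes), bile acid and sterol (17), gluconeogenesis and fasting (16), lipogenesis (19), circadian clock (14), endoplasmic reticulum stress (22), NRF2 (19), periportal (15) and hepatocyte protein genes (22) had 0 calls and medians between -0.10 and 0.06. Of 17 pericentral genes, 1 was lower, Nt5e, with a median of -0.10. Markers of endothelial (10), stellate (8), cholangiocyte (2), neutrophil (6) and lymphocyte (5) identity gave 0 calls, with medians of -0.08 to 0.11. Near the deleted locus, of 40 tested genes around Nr1i3 in the gene order 0 were called, with a median difference of 0.00495. Both genotypes lack mouse CAR and the human CAR mice come from crosses to knockouts, so this count cannot show an effect of the deletion.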

How the data were processed

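Liver RNA of 24 mice was measured on Affymetrix mouse arrays, 1 per mouse. The authors deposited log2 expression values, computed with RMA in R 2.15.0 per the submitters' processing notes. The values ran from 2.03 to 14.1 with 0 missing, and 0 columns of other samples were present. For hybridisation dates the labels hold nothing.

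Probe sets (22690, 64 of them controls) were named through GEO's platform annotation. Of these 20380 had 1 gene symbol, 691 several and 1555 were not listed, and 20351 were matched by gene ID to RefSeq (GRCm38.p6). The probe set with the highest mean stood for each of 12393 genes, and 9167 genes above the 40th percentile of the array on at least 2 arrays were tested. No value was floored. A fold called "at least" replaces the dim group's mean by the mean of its dim limits. It allows for dimness only and not for the spread between mice. Group means for the 12 groups were estimated from all 24 arrays (12 residual degrees of freedom) in limma 3.58.1 under R 4.3.3, with Benjamini-Hochberg adjustment over 9167 genes and a threshold of 0.05. The pooled comparison weights corn oil and TCPOBOP equally. The fit was tested on simulated data.

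Named genes were the targets and controls of CAR, the largest called differences, and up to 6 members of each of 29 gene lists by adjusted p. The members and lists were chosen with earlier results of these data known. Genes outside this rule (Cyp2b13, Cyp2c37, Cyp2c54 and Rxra) were added as relatives or partners. No 2 of the 8 arrays were copies: at most 0.0441% of values were equal in any of 28 pairs. Same-numbered arrays of different groups correlated by 0.03 to 0.18 in their deviations from the group means, not above 0.1 in every pair, so the numbers were not taken as pairs. The alternatives tried were a replicate block, array weights, a robust prior with a variance trend, the mean of a gene's probe sets, dim limits at no or the 60th percentile, cyclic loess, only the 8 arrays, leaving out the 2 arrays that stand apart in the series, and leaving out each array. Sequences and coordinates come from RefSeq, read with Python 3.11.15.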

Additional observations from a re-analysis of the deposited data

Results flagged for a closer look

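In 11 of 118 sets of 4 arrays, 1 mouse stood far from the other 3 by Dixon's test. Its limit is set so that chance gives this in about 1 of 20 sets of like mice. Here each set mixes corn oil and TCPOBOP mice, and the sets share mice. Many of the genes were also named for their values on these arrays. The count therefore cannot be held against that share. Causes were not tested. Among genes called between human CAR and knockout mice, Hsd17b12 was 8.39 in the first human CAR corn oil mouse and 8.64 to 8.69 in the other 3. Tox was 4.53 in the first human CAR TCPOBOP mouse against 4.29 to 4.31, all of them dim. Cyp4a14 was 9.001 in the first knockout corn oil mouse against 9.86 to 9.99 in the other knockout mice.

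The first human CAR corn oil mouse also stood apart in 4 of the remaining sets. Cyp7b1, an oxysterol hydroxylase of the male-biased list, was 8.74 there and 10.7 to 10.99 in the other 3 human CAR mice. Abcd2, a peroxisomal fatty acid transporter, was 5.15 there against 3.64 to 3.71, Cbr1, a carbonyl reductase, 8.25 against 7.40 to 7.52, and Cyp2c38 7.93 against 7.32 to 7.39. Cyp2c39 was 5.595 in the second human CAR corn oil mouse against 7.84 to 8.25. Ifi27l2a was 6.71 in the first human CAR TCPOBOP mouse against 6.09 to 6.11, and Plekhb2 5.49 in the second against 5.33 to 5.35. In knockout mice, Bcl6, a repressor of the male-biased list, was 6.25 in the first TCPOBOP mouse against 5.86 to 5.88.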

How the results depend on the processing

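Each fit that left out 1 array assumed the lone mouse of its group to vary like the other groups. Of the named gene results, 1181 kept direction and side of the threshold, 23 changed sign without a call either way, 133 lost and 18 gained a call, and 1 called value reversed, Rad51b, at 0.18 against the CITCO knockout arrays. The 13 genes called between human CAR and knockout became 6 with the mean of probe sets, 8 with a variance trend, 21 with array weights, 22 without the 2 arrays that stand apart, 7 against the CITCO and 14 against all 8 knockout arrays, and 3 to 28 without single arrays. On corn oil the 11 became 18 with cyclic loess, 18 with no dim filter, 25 with array weights, 17 with a replicate block, 21 without the 2 arrays, and 4 to 17 without single arrays. On TCPOBOP the 3 became 10 with array weights, 8 with only the 8 arrays, 7 without the 2 arrays, and 1 to 6 without single arrays. The difference between treatments gave 1 call with no dim filter and 0 to 1 without single arrays. TCPOBOP against corn oil in human CAR mice gave 1 with only the 8 arrays and 0 to 11 without single arrays. Human CAR against wild type, 5 genes, gave 8 with the replicate block, 12 without the 2 arrays, and 3 to 22 without single arrays. With the replicate block the pooled count was 14. It was 16 with only the 8 arrays, 9 of them among the 13. Of the list medians 517 moved little and 33 more. The causes were not tested. Genes near the dim limit, such as Tox and Obp2a, have the least certain sizes.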

Other observations

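A few genes of other lists varied widely among the human CAR mice and did not pass. Asns, which makes asparagine and is raised by amino acid shortage, had 9.36 and 7.49 on corn oil and 5.84 and 8.03 on TCPOBOP in human CAR mice. Wild-type mice on corn oil had Asns at 8.41 and 8.26, and knockout mice 5.76 and 5.88 on corn oil and 6.10 and 5.56 on TCPOBOP (log2 difference of human CAR and knockout 1.86, limma adjusted p = 0.103). Mt2, a metallothionein that binds zinc, was 12.2 in the first human CAR corn oil mouse and 10.1 to 10.5 in the other 3, against 11.5 to 12.5 in knockout mice (-1.27, adjusted p = 0.32). Serpina12, a secreted serpin, was 5.25 in that same mouse and 7.48 to 8.42 in the other 3, against 5.19 to 6.46 in knockout mice (1.51, adjusted p = 0.292).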
